A study of Mus musculus with 74 samples.

Results

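The subunits of the proteasome and of the COP9 signalosome were followed through the day in which the mouse gonad takes up the testis or ovarian fate. They were chosen by symbol, as all probes of the array named Psma, Psmb, Psmc or Psmd with a number, or Cops with a number. The symbols took in 67 probes of 44 genes, of 25697 probes in the deposited table. Of these, 57 probes of 39 genes were among the brightest probes of the table, on which every test was run. The probes of Psma1, Psma6, Psmb8, Psmb9 and Psmc6 were too dim, as was 1 probe each of Psma3, Psmb2, Psmd2, Psmd5 and Psmd11. The set was picked knowing that Cops8 and Psmd8 differ widely by strain, so the strain values below are a description, and counts of probes past a threshold in that contrast support nothing.

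Each of the 74 arrays held the RNA of 1 pair of gonads from 1 embryo, dissected away from the mesonephroi. The embryos were untreated inbred 129S1/SvImJ (129S1) and C57BL/6J (B6) mice, XY or XX by PCR, staged by tail somites at 6 evenly spaced points, E11.0, E11.2 and so on to E12.0. The 24 groups of strain, sex and stage held 3 arrays each, apart from 5 of 129S1 XY gonads at E11.0, 4 of B6 XY gonads at E11.2 and 2 of 129S1 XY gonads at E12.0. The values are log2 signals after quantile normalization, so a difference of 1 is a doubling, and the number of arrays limits the precision.

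The proteasome degrades proteins tagged with ubiquitin. Its 20S core is a barrel of alpha and beta rings, with the catalytic sites in the beta rings. Its 19S cap has a base, whose ATPases unfold the substrate, and a lid, which removes ubiquitin. The signalosome is built from subunits related to those of the lid, and takes the ubiquitin-like protein NEDD8 off cullins, the scaffolds of a large family of ubiquitin ligases. In many cell types the proteasome genes are driven together by the transcription factor Nfe2l1, which binds antioxidant response elements.

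The arrays fell on the side of Xist and Eif2s3y given by their labelled sex. XY arrays lay between 7.11 and 7.49 at Xist and XX arrays between 9.14 and 10.44, while XY arrays lay between 8.51 and 9.94 at Eif2s3y and XX arrays between 6.83 and 7.28. By strain, 2 arrays stood apart, 129S1 XX E11.8 replicates 1 and 2. Over 72 probes whose strain means differ by at least 1 and whose other arrays do not overlap, a position of 1 is the mean of the other 129S1 arrays and 0 the mean of B6. The median position was 0.49 in replicate 1 and 0.56 in replicate 2, against 0.92 to 1.08 in the other 35 arrays of 129S1 and -0.07 to 0.16 in the 37 arrays of B6. Both were kept, and results that rest on them are given without them too. Gonadal cells were present by their markers Lhx9 and Wt1, whereas Emx2 was too dim to pass. Of the mesonephric markers Pax2 did not pass but Lhx1 and Pax8 did, and Lhx1 was 0.69 higher in 129S1 and rose in XY gonads over the day (0.62 ± 0.14, limma adjusted p = 0.000889).

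The signals of Cops8, Psmd8 and Psmb5 were lower in 129S1 gonads than in B6 gonads at every stage and in both sexes. Each gene was read by 1 probe. Whether these probes match the 129S1 sequence was not tested, so a lower signal is not shown to be less RNA. Markers of other cells differed by strain too. All 6 germ cell probes were higher in 129S1 (median 0.39), and of 11 macrophage probes 7 were lower (down to -1.32) and 1 higher. Their part in the strain differences of the set was not tested. The sequence just before the annotated start is shown for Cops8 and Psmd8, since they have the largest strain differences of the set. It is the B6 reference of RefSeq, build GRCm38.p6, read 5′ to 3′ on the strand of the gene and ending at the base before the start. No 129S1 sequence was used here.
Cops8, chr1:90603325-90603424, plus strand: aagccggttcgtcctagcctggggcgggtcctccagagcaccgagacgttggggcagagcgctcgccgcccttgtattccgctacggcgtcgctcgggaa
Psmd8, chr7:29180674-29180773, minus strand: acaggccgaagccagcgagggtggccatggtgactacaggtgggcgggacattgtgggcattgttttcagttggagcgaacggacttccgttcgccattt

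Promoters were searched for the antioxidant response element bound by Nfe2l1, spelled TGACNNNGC, on both strands of the 250 bases before the start. Its opening TGAC also begins AP-1 and cyclic AMP response elements. Promoters were found for 38 of the 44 genes, and 6 of them (15.8%) held a match, against 11.5% of 27025 promoters of all genes. These were Cops7a, Psmb5, Psmb6, Psmc6, Psmd12 and Psmd9. A CCAAT box, spelled CCAAT, was in 13 of the 38 (34.2%), against 37.5% of all. A match of letters is not a binding site. Capitals mark the element in 4 of these promoters, shown because they include Psmb5, the only one of the 3 strain-dependent genes that has the element.
Psmb5, chr14:54618004-54618072, minus strand: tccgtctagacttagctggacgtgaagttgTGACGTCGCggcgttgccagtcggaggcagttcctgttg
Psmb6, chr11:70525318-70525356, plus strand: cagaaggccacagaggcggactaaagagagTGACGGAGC
Psmc6, chr14:45329574-45329635, plus strand: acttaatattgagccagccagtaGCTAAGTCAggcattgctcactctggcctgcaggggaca
Psmd12, chr11:107479278-107479319, plus strand: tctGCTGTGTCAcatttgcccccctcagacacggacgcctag

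In Psmb6 the element ends at the base before the start, and in Psmb5 it begins 47 bases before it. In Psmc6 and Psmd12 it lies on the other strand, 227 and 247 bases before the start.

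Cops8 encodes one of the small subunits of the signalosome. Its only probe, ILMN_1218868, lay at 7.13, 7.37 and 9.28 in 129S1 arrays (lowest, median, highest, n = 37), against 9.99, 10.39 and 10.59 in B6 arrays (n = 37). No array of 129S1 reached the lowest B6 array. The difference, 129S1 minus B6, was -2.88 ± 0.06 (SE). It was -2.94 ± 0.05 without the 2 arrays that stood apart. In 129S1, 31 of 37 arrays were below 7.65, the value a probe had to reach to be tested, while 0 B6 arrays were below it. The probe was tested only because of its B6 level, and whether the 129S1 level exceeded background was not tested. Where it did not, the probe could not follow the 129S1 level, and the size of the difference is not known.

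Psmd8, a subunit of the 19S lid, showed a difference of similar size. Its only probe, ILMN_2678019, lay at 8.06, 8.59 and 10.80 in 129S1 arrays, against 11.17, 11.55 and 11.87 in B6 arrays (lowest, median, highest, n = 37 each). The strains again did not overlap. The difference was -2.85 ± 0.08, or 7.23-fold, and -3.0 ± 0.05 without the 2 arrays.

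Psmb5 carries the chymotrypsin-like site of the core, the target of proteasome inhibitor drugs such as bortezomib. Its only probe, ILMN_2613469, lay at 9.02, 9.62 and 10.57 in 129S1 arrays, against 9.97, 10.51 and 11.01 in B6 arrays (lowest, median, highest, n = 37 each). The strains overlapped over the whole time course, but in 12 of 12 combinations of sex and stage they did not. The difference was -0.91 ± 0.07, or 1.88-fold, and -0.98 ± 0.06 without the 2 arrays.

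**Figure D1:**
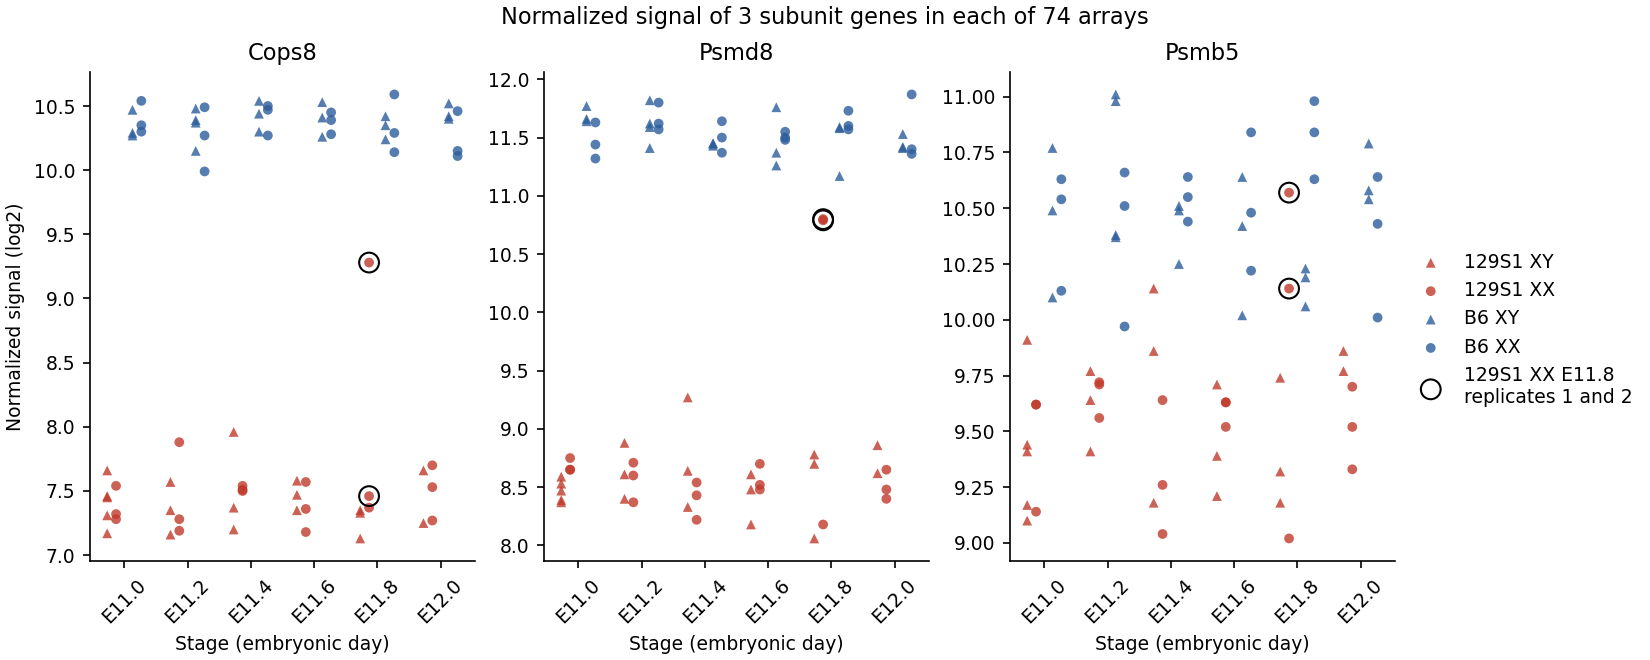
Normalized signal (log2) of Cops8, Psmd8 and Psmb5 in each of 74 arrays, by stage. Red marks are 129S1 and blue marks B6, triangles XY and circles XX, and rings mark 129S1 XX E11.8 replicates 1 and 2. At Psmd8 the highest 129S1 array lies at 10.80 and the lowest B6 array at 11.17, whereas at Psmb5 the strains overlap between 9.97 and 10.57.

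The strain difference of the 3 genes was present at each stage. Within a sex and stage, Cops8 differed by between -3.06 and -2.30, Psmd8 by between -3.22 and -1.71 and Psmb5 by between -1.22 and -0.69. The smallest difference of Cops8 and of Psmd8 was that of XX gonads at E11.8, the group with the 2 arrays that stood apart. There replicates 1, 2 and 3 of 129S1 read 9.28, 7.46 and 7.37 at Cops8. They read 10.79, 10.80 and 8.18 at Psmd8, and 10.57, 10.14 and 9.02 at Psmb5. Replicate 1 was thus above the other 35 arrays of 129S1 (highest 7.96, 9.27 and 10.14) at all 3 genes, and replicate 2 was above them at Psmd8 alone.

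The other 54 probes of the set showed strain differences from -0.12 to 0.19. Among all members tested, 5 probes (8.77%) passed the adjusted threshold as higher in 129S1, where 16.4% of all probes tested did, and 5 (8.77%) as lower, where 14.8% did. Strains without any overlap were seen at 2 members, Cops8 and Psmd8, against 0.671% of all probes, and at the same number against 1.02% without the 2 arrays. Because the set was chosen on this contrast, nothing is read from these shares. The median difference was 0.02 without the 3 genes, and likewise 0.02 over all probes tested.

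Among the other signalosome subunits Cops7a, which joins the complex in place of Cops7b, was the farthest from 0. Its probes ILMN_1217296, ILMN_2682787 and ILMN_2875812 were 0.19 ± 0.06, 0.15 ± 0.04 and 0.12 ± 0.05 higher in 129S1. The 2 probes of Cops7b were both higher by 0.08. Cops4 was lower by 0.12 ± 0.03 at ILMN_1215493, and its second probe ILMN_2729985 differed by -0.01 ± 0.05. Cops5, the metalloprotease that cleaves NEDD8, differed by 0.04 at each of its 2 probes. Cops2, Cops3 and Cops6 differed by 0.04, -0.04 and 0.09.

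Within the lid, of which Psmd8 is a part, the other 10 probes differed by between -0.08 and 0.05. They included both probes of Psmd12, both of Psmd7 and the only one of Psmd14, the deubiquitinase of the lid. The beta ring beside Psmb5 differed by between -0.10 and 0.08 over 9 probes, Psmb6 and Psmb7, which carry the other catalytic sites, among them. The alpha ring, the gated entrance of the barrel, differed by between -0.09 and 0.05 over 6 probes, and the ATPases by between -0.10 (Psmc4) and 0.01.

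**Figure D2:**
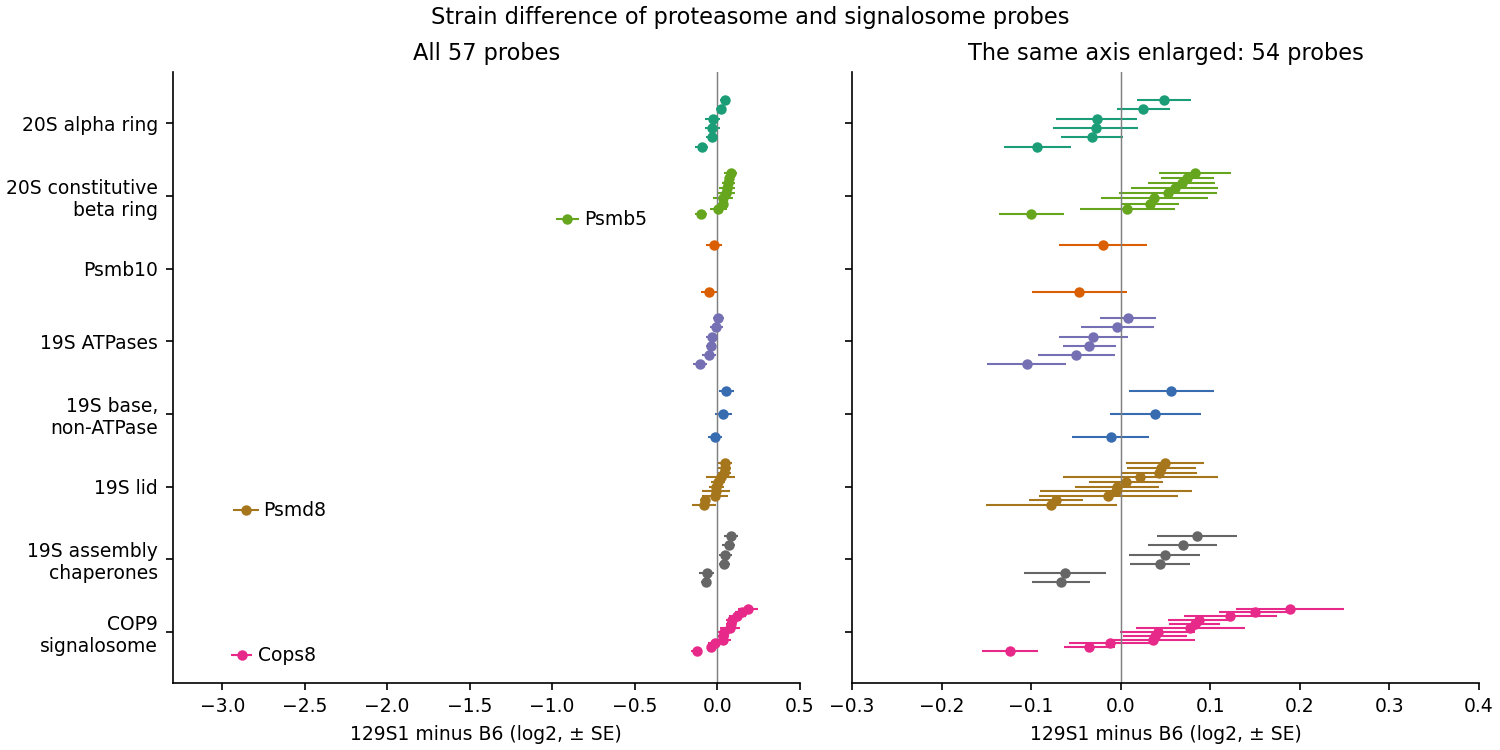
Strain difference (129S1 minus B6, log2, ± SE) of each of 57 probes, grouped by place in the complex. The left panel shows all probes and the right panel the 54 without Cops8, Psmd8 and Psmb5 on a wider scale, where they lie between -0.12 and 0.19.

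A second probe could be set beside the first for 15 genes of the set, but not for Cops8, Psmd8 or Psmb5. The strain differences of probes of 1 gene lay within 0.15 of each other in all 15 (median 0.04), the widest being Psmb7, with -0.10, 0.05 and 0.04. Over all 2159 genes with 2 or more tested probes the median was 0.06, and 85 (3.94%) spread by more than 0.5, up to 3.67.

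The nearest genes with a tested probe were read too, 3 on each side in the gene order of GRCm38.p6. Genes without a tested probe were passed over, so these need not be the adjacent genes. Those of Psmb5 were added after its difference had been seen. Around Cops8 on chromosome 1, 7 probes of 6 genes differed by between -0.77 and 0.22. The lowest was Hjurp, the histone chaperone of centromeres, the third gene with a tested probe before it. Mlph, Rbm44 and Lrrfip1 differed by between 0.04 and 0.22. Around Psmd8 on chromosome 7, 11 probes differed by between -0.48 and 0.08. Lgals7 was at -0.45 and Ppp1r14a at -0.48 and 0.06 with its 2 probes. Around Psmb5 on chromosome 14, 10 probes differed by between -1.68 and 0.29, with the lowest at 1700123O20Rik, whose other probe was at -0.39. None of these neighbours came as low as Cops8 or Psmd8.

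Stage and sex, which played no part in the choice of the set, were then tested. In bulk gonads fewer cells of a type and less RNA per cell cannot be told apart. Cops8, Psmd8 and Psmb5 did not pass for sex or stage in the unweighted fit. XY minus XX was -0.04 at Cops8 (95% interval -0.17 to 0.09, adjusted p = 0.817), -0.11 at Psmd8 (-0.27 to 0.05, adjusted p = 0.504) and -0.03 at Psmb5 (-0.17 to 0.11, adjusted p = 0.89), by limma with Benjamini-Hochberg adjustment over all probes tested. At Cops8 the 129S1 arrays had little room to show a lower level, since 31 of 37 lay below the filter value. The sex difference of Psmd8 was 0.04 without the 2 arrays. The largest change of these genes from E11.0 to E12.0 was that of Psmb5 in XY gonads, 0.30 ± 0.17 (95% interval -0.05 to 0.64, limma adjusted p = 0.27). No member passed the test of sex by strain (0.287% of all probes did) or of stage by strain (0.319%). At an unadjusted p under 0.05 there were 3 and 0 members. No share of all probes is given at that unadjusted level, so nothing is read from this or the later unadjusted counts. With array quality weights Psmd8 passed for stage (limma adjusted p = 0.00728), as did 35.4% of all probes. Psmd8 and Psmb5 then also passed for sex by stage (limma adjusted p = 0.00256 and 0.00656), as did 11.1% of all probes. Under the same weights Psmb5 was higher in XY than in XX gonads of B6 at E12.0 (0.54 ± 0.18, limma adjusted p = 0.0329).

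Across the set the sex differences were small. Of the 57 probes, 0 were called higher in XY gonads, where 5.56% of all probes were, and 1 was called lower, where 5.29% were. At an unadjusted p under 0.05 there were 5. The differences lay between -0.11 (Psmd8) and 0.11 (Psmd14), and 39 of 57 were above 0. No share above 0 is given for all probes, so nothing is read from that count. The 95% interval lay within 0.5 of 0 for 57 of 57, and for 11391 of all 11524 tested probes with a symbol. Nothing particular to the set is read from that. The median size of the sex difference was 0.03, against 0.04 over all probes tested.

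The 1 probe called was that of Cops2, a scaffold subunit of the signalosome also known as a corepressor of nuclear receptors. It lay at 11.49, 11.91 and 12.31 in XY arrays (lowest, median, highest, n = 38), against 11.75, 11.99 and 12.31 in XX arrays (n = 36), so the sexes overlapped almost fully. XY minus XX was -0.10 ± 0.04 (95% interval -0.18 to -0.03, limma adjusted p = 0.0464), with XY lower in 8 of 12 combinations of strain and stage. Over both strains together the gap was widest late. At E11.8 the mean was 11.86 ± 0.08 in XY gonads and 12.15 ± 0.10 in XX gonads (SD, n = 6 each), and at E12.0 it was 11.79 ± 0.11 in XY gonads (n = 5) and 11.98 ± 0.14 in XX gonads (n = 6). In B6 alone, XY minus XX was already -0.23 at E11.2, against -0.28 at E11.8 and -0.20 at E12.0. The test of sex by stage over both strains did not pass (adjusted p = 0.574, limma). The call is at the threshold: leaving out 1 array ended it in 45 of 74 fits. Over all 74 fits the adjusted p ran from 0.0141 to 0.0827 (limma). Leaving out the 2 arrays that stood apart ended the call too. The other 12 probes of the signalosome had sex differences from -0.04 to 0.05.

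At E12.0, when the testis and ovarian programmes have parted, 0 members differed between XY and XX gonads in 129S1, against 6.75% of all probes, and 0 in B6, against 4.89%. At an unadjusted p under 0.05 there were 4 and 7. In B6 this count rested on the weight given to the arrays: with array quality weights 9 members were called, all higher in XY gonads, against 6.68% of all probes. They included the ATPases Psmc1 (0.50 ± 0.11) and Psmc5 (ILMN_1251877, 0.42 ± 0.10), whose other tested probe was not called. The number of members with a sex difference that changed over the stages was also 0, against 5.98% of all probes (6 at an unadjusted p under 0.05).

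Over the day few members were called. In XX gonads 0 probes were called higher at E12.0 than at E11.0, where 6.12% of all probes were, and 1 was called lower, where 5.94% were. In XY gonads 0 were called in either direction, where 7.43% were higher and 9.6% lower. At an unadjusted p under 0.05 there were 8 in XX gonads and 5 in XY gonads. The test over all 6 stages called 2 of 57, against 22.7% of all probes (9 at an unadjusted p under 0.05). The 95% interval of the change lay within 0.5 of 0 for 50 of 57 probes in XX gonads and for 49 in XY gonads. Of all 11524 tested probes with a symbol it did so for 9446 in XX and 9089 in XY gonads. Nothing particular to the set is read from these counts. The median size of the change was 0.09 in XX and 0.11 in XY gonads, against 0.12 in each over all probes, at a residual SD of 0.18 in the set and 0.17 in all.

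By place in the complex, the median change in XX gonads ran from -0.15 for the 6 ATPase probes to 0.10 for the 13 signalosome probes, the pair of Psmb10 probes apart at -0.35. In XY gonads it ran from -0.09 for the 6 assembly chaperone probes to 0.14 for the 11 lid probes, with Psmb10 at -0.20. Single probes outside Psmb10 did not pass in this fit. With array quality weights 9 probes were called lower in XX gonads, against 14.3% of all probes. Among them were Psma7 (ILMN_2793488, -0.33 ± 0.08), Psmc5 (ILMN_1251877, -0.33 ± 0.08) and Psmb2 (ILMN_2765890, -0.27 ± 0.07). The other tested probe of each of these genes was not called. With the replicate number as a block the same probes of Psma7 and Psmc5 were called beside Psmb10. The largest positive estimates without weights were those of Psmd12 (ILMN_1216211), 0.44 in XX gonads (limma adjusted p = 0.195), and of Psmb7 (ILMN_1221340), 0.30 in XY gonads (limma adjusted p = 0.135). Psmd12 was read by 2 tested probes and Psmb7 by 3, and the other probes of both had lower estimates. At ILMN_2896805 of Psmd12, XX arrays read 10.22 to 10.54 at E11.0 and 10.29 to 10.62 at E12.0.

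**Figure D3:**
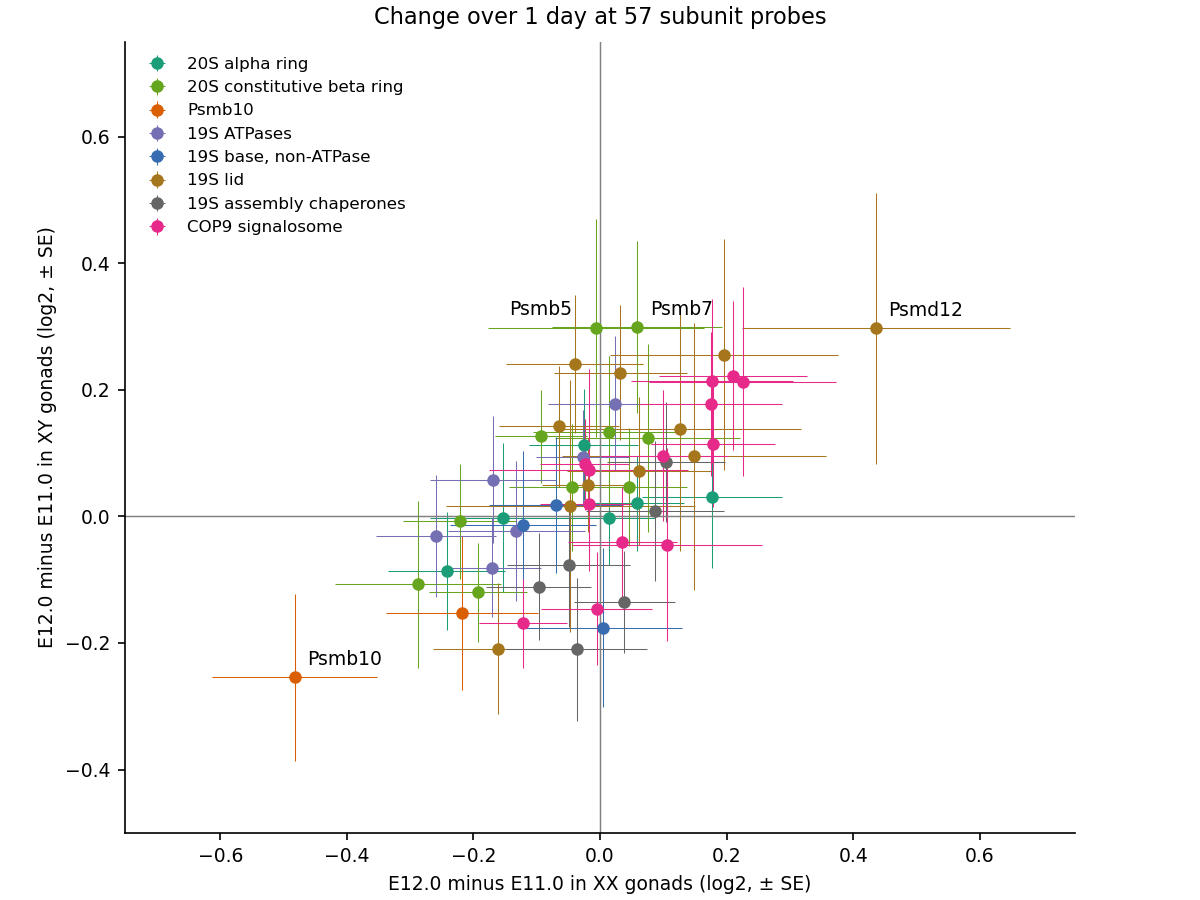
Change from E11.0 to E12.0 (log2, ± SE) of 57 probes, in XX gonads on the horizontal axis and in XY gonads on the vertical axis, coloured by place in the complex. Psmb10 (ILMN_2757870) at -0.48 and -0.25 lies lowest, and Psmd12 (ILMN_1216211) at 0.44 lies farthest to the right.

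Psmb10 was the only member called for stage in the unweighted fit of the 6 stages. Other fits called further members: 8 probes with array quality weights, against 35.4% of all probes, 5 with the replicate block, against 25.8%, and 7 with a linear trend of stage, against 28.9%. It is one of 3 catalytic subunits, with Psmb8 and Psmb9, that replace the constitutive ones to form the immunoproteasome, the interferon-inducible form that cuts peptides for antigen presentation. Psmb8 and Psmb9 were too dim to pass, at 6.97 to 7.81 and 7.16 to 7.68 over the 74 arrays. Probe ILMN_2757870 of Psmb10 read 9.21, 8.73 and 8.78 in 129S1 XX gonads at E12.0, against 9.44, 9.50 and 9.20 at E11.0. In B6 XX gonads it read 8.96, 8.79 and 8.97 at E12.0, against 9.44, 9.65 and 9.12 at E11.0. The stages overlapped by 1 array in 129S1 and did not overlap in B6. The change was -0.48 ± 0.13 (95% interval -0.74 to -0.22), or 1.40-fold lower at E12.0 (limma adjusted p = 0.00734).

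In XY gonads the same probe lay at 8.79, 9.03 and 9.26 at E12.0 (lowest, median, highest, n = 5), against 8.96, 9.38 and 9.57 at E11.0 (n = 8). The change of -0.25 ± 0.13 did not pass (95% interval -0.52 to 0.01, limma adjusted p = 0.201). The sexes were not shown to differ in this, as the test of sex by stage gave an adjusted p of 0.936 (limma). Over both sexes the stage means were 9.35, 9.41, 9.25, 9.26, 9.21 and 8.98 from E11.0 to E12.0 (limma adjusted p = 0.00527 over the stages). That call was lost when 129S1 XY E12.0 replicate 2 was left out (adjusted p = 0.0518).

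The second probe, ILMN_2914843, moved the same way with less certainty. Its stage means were 9.48, 9.61, 9.44, 9.57, 9.46 and 9.28, with the lowest again at E12.0. The test over the stages passed (limma adjusted p = 0.0372), but not in 13 of 74 fits without 1 array, each an array of E11.2 or E12.0 (adjusted p up to 0.139, limma). The change in XX gonads, -0.22 ± 0.12 (95% interval -0.46 to 0.02, limma adjusted p = 0.267), and that in XY gonads, -0.15 ± 0.12 (limma adjusted p = 0.459), did not pass. With array quality weights the change in XX gonads passed (-0.29 ± 0.10, limma adjusted p = 0.0223), where 14.3% of all probes were called lower. With no filter on dim probes this probe was not called for stage.

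**Figure D4:**
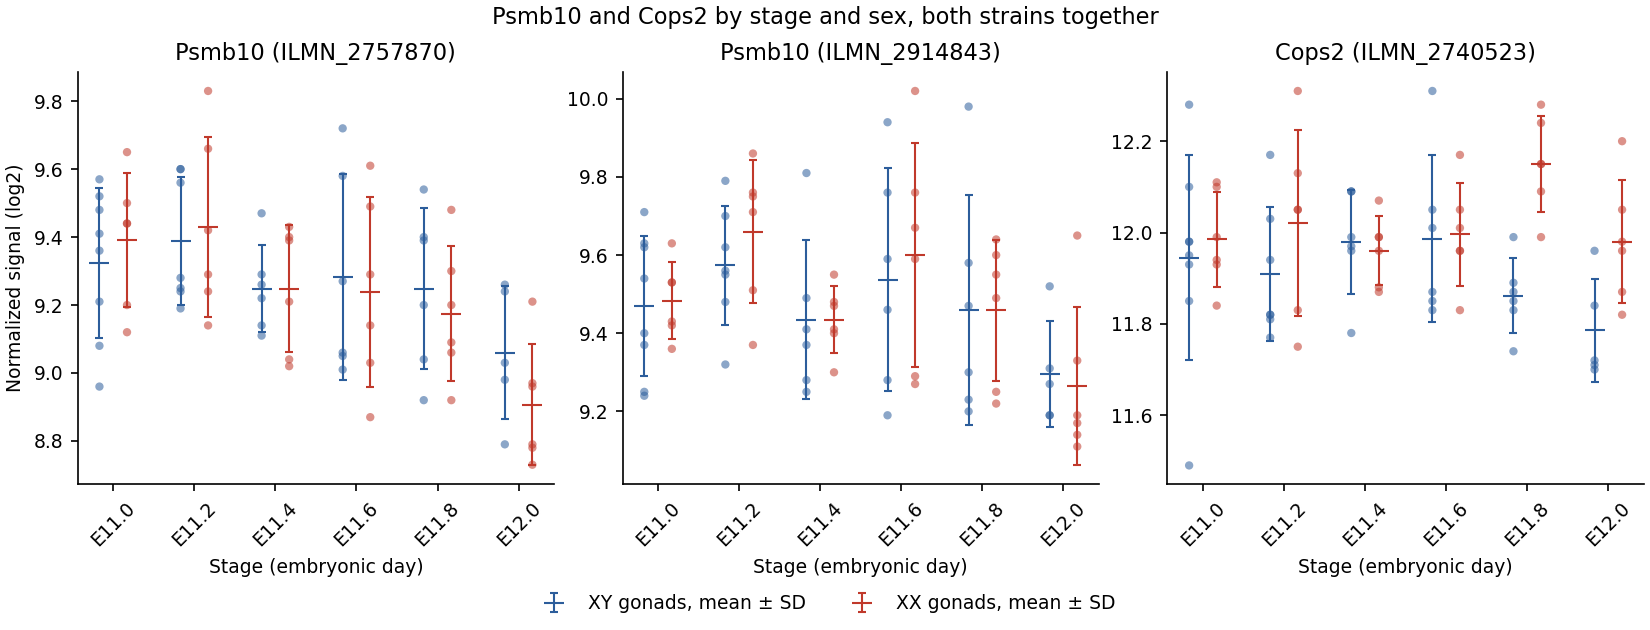
Normalized signal (log2) of both probes of Psmb10 and of Cops2 by stage, both strains together, XY gonads in blue and XX gonads in red. Points are arrays and bars mean ± SD. Both Psmb10 probes have their lowest stage mean at E12.0 (8.98 and 9.28), and Cops2 is lower in XY gonads at E11.8 (11.86 against 12.15) and E12.0.

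Markers of several cell types also moved over the day. Germ cell markers rose, with 4 of 6 probes called in XX and 2 in XY gonads (median change 0.80 and 0.50), led by Dazl (1.49 in XX and 1.29 in XY gonads). Their mean level lay between 8.84 and 9.98 in XX gonads at E12.0, against 8.26 to 8.94 at E11.0, and between 8.40 and 9.96 in XY gonads at E12.0, against 8.13 to 9.07 at E11.0. Of the red cell markers, the embryonic globin Hbb-bh1 fell by 0.73 in XX and 0.95 in XY gonads, and the other 5 probes were not called. Macrophages, which can carry the immunoproteasome, had 8 marker genes on the array. Of these 7 passed, with 11 probes, and Aif1 did not. In XX gonads 0 probes were higher and 2 lower, both of Coro1a (-0.49 and -0.29), and in XY gonads 0 were higher and 4 lower, including Lyz1 (-1.09) and Laptm5 (-0.59). The median change was -0.22 in XX and -0.32 in XY gonads. The mean level of the list lay between 7.83 and 8.39 in XX gonads at E12.0, against 7.92 to 8.90 at E11.0. In XY gonads it lay between 7.57 and 8.42 at E12.0, against 8.05 to 8.51 at E11.0. The part of these cell types in the change of Psmb10 was not tested.

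The interferon-inducible genes of antigen presentation did not move in 1 direction. Of 16 genes on the array 10 passed, with 17 probes. In XX gonads 2 probes rose, 1 of 4 of the transcription factor Irf1 (0.58) and Igtp (0.30), and 0 fell. In XY gonads 2 rose, both of B2m, the light chain of class I molecules (0.41 and 0.44), and 3 fell, of the guanylate-binding proteins Gbp2 (-1.36) and Gbp3 (-0.41 and -0.40). Gbp2 and Gbp3 were also lower in XY than in XX gonads over all stages, as was 1 of 2 probes of Psme1, a subunit of the 11S proteasome activator (-0.10 ± 0.03, limma adjusted p = 0.0286). The other probe of Psme1 had the same estimate and did not pass (adjusted p = 0.384, limma).

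The genes that work with these complexes were read as lists. The shares of all probes called, given above beside the members, apply to these lists and to the markers too. Of 6 probes of the activators and the inhibitor, only that of Psme1 was called for sex, and 0 were called for stage. Of 5 probes of assembly factors 1 rose in XY gonads, Psmg2 at ILMN_3153450 (0.45 ± 0.16, limma adjusted p = 0.0368), while its other probe stood at 0.21 ± 0.12 (limma adjusted p = 0.247). Of 13 probes of proteasome-associated genes 1 fell in XY gonads, the segregase Vcp (-0.24 ± 0.08, limma adjusted p = 0.024). Nfe2l1 and Nfe2l2 were called for neither sex nor stage. Gps1, the first subunit of the signalosome, which does not carry a Cops symbol, changed by -0.04 ± 0.09 in XX and -0.05 ± 0.10 in XY gonads and was not called. The 2 ubiquitin and E1 genes on the array did not pass the filter on brightness.

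The pathway on which the signalosome acts was read in the same way. Of 27 probes of the NEDD8 pathway and the cullin ligases, 1 rose and 2 fell in each sex, of the same 3 genes. Of all probes 6.12% rose and 5.94% fell in XX gonads, and 7.43% rose and 9.6% fell in XY gonads. Nothing about the pathway as a whole is read from these counts. Cul4b, an X-linked cullin, rose by 0.59 ± 0.10 in XX gonads (limma adjusted p = 9.66e-06), and the rise in XY gonads was 0.31 ± 0.10 (limma adjusted p = 0.0247). Rbx1, the RING subunit of most cullin ligases, at ILMN_1230583 changed by -0.45 ± 0.10 in XX gonads (limma adjusted p = 0.00085) and -0.28 ± 0.10 in XY gonads (limma adjusted p = 0.038). Its other probe changed by 0.04 ± 0.10 in XX and -0.04 ± 0.10 in XY gonads and did not pass. Senp8, the protease that matures NEDD8, fell by 0.27 in XX and 0.26 in XY gonads. Cul7 was lower in XY than in XX gonads by 0.13 ± 0.03 (limma adjusted p = 0.00184). By strain, Dcun1d1 (-0.23) and Senp8 (-0.13) were lower in 129S1 gonads, and no other probe of the 27 differed by more than Dcun1d1.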

How the data were processed

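Total RNA of single pairs of gonads was amplified from oligo(dT) primers and hybridized to MouseRef-8 v2.0 BeadChips. The authors extracted intensities with GenomeStudio and quantile normalized and log2 transformed them with beadarray, in R 2.12.0 per the submitters' notes; these deposited log2 values were used as they stand. The deposited table of intensities before normalization was not used here, since its columns are named by chip and position and cannot be paired with samples, so detection, background and slide were not used. Probe symbols came from the platform annotation (1 symbol for 23978 probes, none for 1719), and 23962 were matched by gene identifier to the assembly GRCm38.p6. Promoters are those of RefSeq.

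A probe's rank was that of its second highest value within the group where it was brightest, and the 12213 probes of highest rank were kept, as many as the study tested. A model of 24 group means was fitted with limma 3.58.1 in R 4.3.3 (data.table, version 1.17.8), with Benjamini-Hochberg adjustment over all kept probes at 0.05. Values behind ± are standard errors unless SD is written. Contrasts were strain, sex, E12.0 against E11.0 within XX and within XY gonads averaged over strains, sex at E12.0 in each strain, and F tests of stage and of interactions. The script was tested on simulated data. Embryos are the replicates; litter is not in the labels. Figures were drawn with Python 3.11.15 and matplotlib 3.10.9.

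The members, the gene lists and the neighbours were chosen with earlier results of these data known. Named genes were Cops8, Psmd8, every signalosome gene, Psmb8 to Psmb10, the 6 other probes with the largest strain difference, genes whose probes spread by more than 0.5, up to 6 past the threshold in each test of sex, stage change or sex by stage, all past a strain interaction, and up to 4 of each other list. Others were named to show a range or a role. Alternatives were no filter, a filter at 6106 probes, array centring, array weights, a trended prior variance, a replicate block, a linear trend of stage, each array left out in turn and, added after seeing the data, both 129S1 XX E11.8 arrays left out.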

Additional observations from a re-analysis of the deposited data

Results flagged for a closer look

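Psmb10 (ILMN_2757870) read 9.6 in B6 XY E11.2 replicate 2, while the other 3 arrays of that group lay between 9.24 and 9.28. The array is farther from its group than Dixon's test allows at 95%. Such gaps were looked for at 17 probes in the groups that hold over 3 arrays, which made 34 tests, and at that level chance flags about 1 in 20.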

How the results depend on the processing

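The counts of members past the threshold depended on the setting more than the named values did. With array quality weights 2 probes were called for sex (Cops2 and Psmc2; 13.9% of all probes), 9 for the change in XX gonads (all lower; 14.3%), 9 for sex at E12.0 in B6 (all higher in XY; 6.68%), 8 for stage (35.4%) and 3 for sex by stage (11.1%). With no filter on dim probes 0 were called for sex (4.89% of all) and 1 for stage (10.5%), and Cops2 had an adjusted p of 0.0723 (limma). A linear trend of stage gave 7 for stage (28.9% of all), 2 for the change in XX gonads (Cops7a, higher by 0.37, and Psmb10; 15.5%) and 1 in XY gonads (Psmd9; 23%). Without the 2 arrays of 129S1 XX E11.8, 0 were called for sex (10.4% of all). The cause of these shifts was not tested. Of 75 counts recomputed under these settings 62 stayed within 1.5 times the reported count, and of 76 values of named genes 71 were rated the same. The same meant an equal side of the threshold and, where a value has one, an equal direction. For strain differences it meant an equal direction and a shift smaller than the residual SD of the probe.

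Replicate numbers were not taken to pair the arrays, since the labels do not say what they stand for. Deviations of arrays with the same number correlated by 0.09 on average, against -0.04 for other numbers. Of the pairs with the same number 51.4% exceeded 0.1. With the replicate number as a block, 3 members were called for the change in XX gonads (Psma7, Psmb10 and Psmc5; 13.8% of all probes) and 5 for stage (25.8%).

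With each array left out in turn, the calls ranged from 8 to 12 for strain, 0 to 2 for sex, 1 to 4 for the change in XX gonads, 0 to 1 for that in XY gonads, 0 to 1 for sex at E12.0 in each strain, 1 to 4 for stage, 0 to 2 for sex by stage and 0 to 1 for stage by strain. Leaving out 129S1 XX E11.8 replicate 3, so that the 2 arrays that stood apart were the group, called Psmd8 for sex (adjusted p = 0.00322, limma), for stage (adjusted p = 7.51e-08, limma), for sex by stage and for stage by strain, and Psmb5 for sex by stage. The change in XX gonads gained calls without 129S1 XX E11.0 replicate 3, 129S1 XX E12.0 replicate 1, 129S1 XY E11.0 replicate 2, B6 XX E11.0 replicate 3 or B6 XX E12.0 replicate 1.

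Without a usable detection p, how far the dim level of Cops8 in 129S1 lies above background is unknown, and with 3 arrays in most groups a single stage is imprecise.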
